A study of Mus musculus with 12 samples.

Results

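The 2 iWAT and 2 eWAT libraries labelled ob/ob-Veh were compared, each a single-cell RNA-seq library of the stromal vascular fraction (SVF), the cells left when collagenase-digested fat has lost its floating adipocytes. They are 4 of the 12 libraries of the series, and 31324 of its 126095 kept cells, 9165 and 7751 in eWAT and 7205 and 7203 in iWAT. A barcode was kept as a cell if it held 700 to 22000 UMIs (a UMI counts each captured RNA molecule once), 200 to 6000 detected genes and a mitochondrial share under 25%. Per the labels, all 4 libraries came from male leptin-deficient mice (Lepob/Lepob, ob/ob) aged 12 weeks that received the vehicle, methylcellulose, by gavage. The remaining libraries, used only where stated, were labelled WT-Veh, from C57BL/6 mice on the same vehicle, or ob/ob-Rosi, from ob/ob mice dosed with rosiglitazone at 30 mg/kg, with 2 libraries per depot and label. The age (12 weeks) and the length of treatment (3 days) were the same in all 12 libraries. Epididymal fat (eWAT) is a visceral depot, and inguinal fat (iWAT) a subcutaneous one. Each library holds 300 mg of tissue taken from several places of a depot, so that the values are averages over the depot.

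White fat depots arise from different mesodermal territories, and their stromal cells keep transcription factors of those territories into adult life. Tbx15, Shox2, En1 and the posterior Hox genes are known from subcutaneous stroma, and Tcf21 and Wt1 from visceral stroma. Adipocyte precursor cells (APCs) are the Pdgfra-positive mesenchymal cells of the SVF. They range from Dpp4- and Pi16-positive progenitors, which lie in the fibrous sheath of the depot, to Icam1-positive preadipocytes, which are committed to become adipocytes. Visceral depots are also covered by mesothelium, an epithelial sheet that subcutaneous depots lack. Resident macrophages along blood vessels (perivascular macrophages, PVM), other macrophages and monocytes (NPVM), dendritic cells (DC), endothelial cells (EC), T, NK and innate lymphoid cells (NKT) and B cells (BC) make up most of the rest.

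The depot labels were checked with Msln, a mesothelial gene, which stood at 52.5 and 76.6 CPM (UMIs per 1000000 UMIs of a library or of its class) in eWAT and at 0 and 0.051 CPM in iWAT. Lep, the gene mutated in ob/ob mice, stood at 0.139 and 1.03 CPM in eWAT and 0.157 and 0.408 CPM in iWAT. The mutation leaves a transcript, so this 3-prime count says little about the genotype. Trem2, a marker of the lipid-associated macrophages that gather in obese fat, stood at 35.0 and 49.5 CPM in the eWAT libraries labelled ob/ob-Veh, and at 915 to 1177 CPM in the other 4 eWAT libraries, those labelled WT-Veh included. In iWAT it stood at 22.3 and 8.73 CPM against 199 to 270 CPM. The libraries labelled ob/ob-Veh thus held the lowest Trem2 of the series in both depots. Cells that float with the adipocytes during isolation, which lipid-laden macrophages can do, were not analysed here, and their part was not tested.

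The eWAT libraries were deeper, with 50406666 and 41877085 UMIs in kept cells against 25407588 and 19593940 in iWAT. A median eWAT cell held 4717 or 4401 UMIs, and a median iWAT cell 1998 or 1919. The median mitochondrial share was 4.68% and 5.93% in eWAT and 9.05% and 8.06% in iWAT. Depth therefore moved with the depot in the comparisons within ob/ob-Veh, and so did the mitochondrial share in the classes tested, other than EC-like cells (4.213% and 5.846% in eWAT, 5.746% and 3.539% in iWAT). Alternatives that bear on them were all cells thinned to 700 UMIs and stricter limits on UMIs and mitochondrial share. Neither separates them from the depot. Any pair of the 4 libraries shared 16 to 25 barcodes.

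Below, a log2 difference is iWAT over eWAT, and a gene is called where edgeR's quasi-likelihood test of UMIs summed per library gave an adjusted p of 0.05 or less and the difference was 1.1-fold or more. With 2 libraries per depot the smallest exact two-sided permutation p is 0.33, so each adjusted p rests on the variance model. The labels call the replicates biological, and the study describes the libraries as those of individual mice, so p-values measure the spread between 2 mice per depot. Behind a count of called genes, parentheses give that count with eWAT replicate 1, eWAT replicate 2, iWAT replicate 1 and iWAT replicate 2 left out in turn. In bulk sums, fewer cells of a type and less RNA per cell cannot be told apart.

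Cells were grouped by Leiden clustering and named by marker genes, with "-like" added because only transcripts were read. Mesothelial-like cells were 588 and 490 of the eWAT cells (6.416% and 6.322%) and 0 and 2 of the iWAT cells, the latter 0.02777% (exact binomial 95% interval 0.003363% to 0.1003%). Lymphatic EC-like cells, which carry Prox1 and Flt4, were 37 and 64 in eWAT and 0 in both iWAT libraries, where the exact binomial upper limits are 0.05119% and 0.0512%. In the edgeR test of cell numbers, mesothelial-like (adjusted p = 0.0019) and lymphatic EC-like cells (adjusted p = 0.0093) passed. The lymphatic EC-like call was lost without iWAT replicate 1 (adjusted p = 0.0765) or iWAT replicate 2 (adjusted p = 0.0745), with finer clusters (adjusted p = 0.0652) and with cells assigned singly (adjusted p = 0.0673). Intervals and limits of this kind cover counting error only.

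APC-like cells were 44.6% and 38.63% of the kept cells in eWAT and 44.91% and 49.63% in iWAT. PVM-like cells made up 20.67% and 23.85% in eWAT and 37.28% and 28.56% in iWAT, and both iWAT libraries lay above both eWAT libraries. NKT-like cells made up 6.743% and 6.09% in eWAT and 2.165% and 3.36% in iWAT, and here eWAT lay above. Neither class passed (edgeR adjusted p = 0.114 for each), though NKT-like cells did with stricter cell filters (edgeR adjusted p = 0.00381) and with cells assigned singly by markers (edgeR adjusted p = 0.00658). EC-like cells varied as much within a depot as between depots, at 2.662% and 7.418% in eWAT and 1.513% and 8.927% in iWAT. The recovery of a class during dissociation and its content in the tissue cannot be told apart in such shares.

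**Figure D1:**
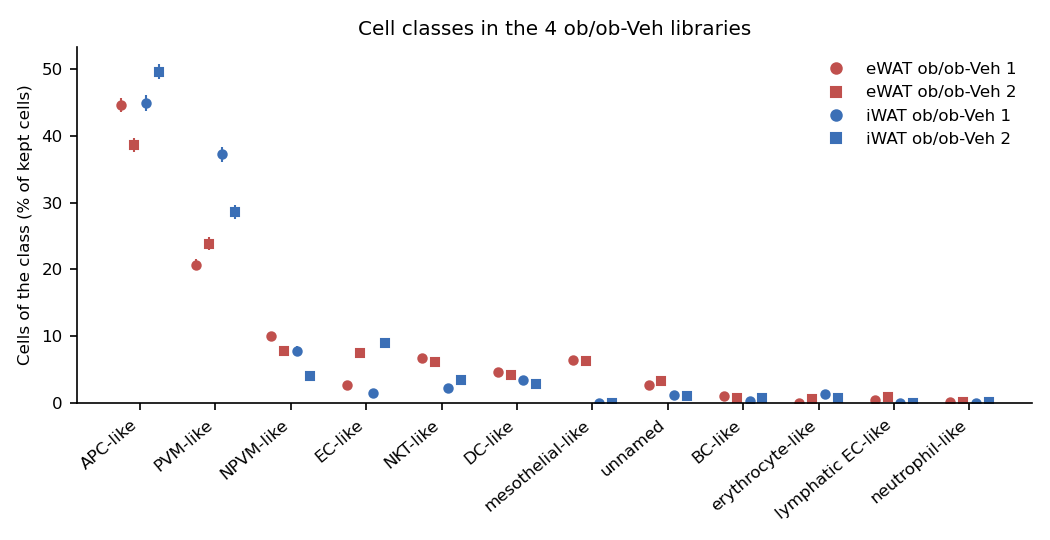
Share of kept cells (%) of each cell class in the 2 eWAT and 2 iWAT libraries labelled ob/ob-Veh, with points for libraries and bars for exact binomial 95% intervals. Mesothelial-like cells were above 6% in both eWAT libraries and at most 0.02777% in iWAT, while EC-like shares spread widely within each depot.

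In UMIs summed over all kept cells, 647 genes were called higher in iWAT and 988 higher in eWAT, 10.5% of 15506 genes tested (4.17% and 6.37% by direction). Leaving out 1 library gave 454 to 978 calls, the fewest without iWAT replicate 1. Among the genes with the largest differences, Pkhd1l1, Lgals7, Slpi and Fgf1 stood highest in mesothelial-like cells, as did Msln, and Pkhd1l1 read 50.7 and 46.4 CPM in eWAT and 0.0787 and 0.102 CPM in iWAT (log2 difference -8.99, SE 0.296, edgeR adjusted p = 5.70e-04). Rorb, a nuclear receptor gene, stood highest in APC-like cells and was higher in iWAT, at 0.932 and 0.931 CPM in eWAT and 51.4 and 65.02 CPM in iWAT (log2 difference 5.996, SE 0.195, edgeR adjusted p = 5.70e-04). The comparison was next made within classes.

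In APC-like cells, 1075 genes were called higher in iWAT and 988 higher in eWAT, 15.3% of 13498 tested (7.96% and 7.32% by direction). With a library left out, the total was 1290, 1057, 1528 and 1341 in the order given above. The class held 4088 and 2994 cells in eWAT and 3236 and 3575 in iWAT. Its clusters separated by depot, since 3 of the 7 (numbers 0, 6 and 10) were almost wholly iWAT cells and 4 (5, 7, 8 and 11) almost wholly eWAT cells. The pan-mesenchymal marker Pdgfra read 726 and 699 CPM in eWAT and 625 and 829 CPM in iWAT, and its difference of 0.07 did not pass (edgeR adjusted p = 0.87).

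Developmental patterning factors stood out in APC-like cells. Of 88 members, 62 were tested, 20 (19, 20, 20, 20) were called higher in iWAT and 14 (13, 8, 10, 13) higher in eWAT, against 15.3% of all genes. The members went both ways, and their median of -0.28 beside -0.00347 over all genes had no stable sign (0.0999 with thinned cells and 0.0544 without eWAT replicate 2). Some T-box and homeobox genes were near 0 in 1 depot, and others were graded. Tbx15 (chromosome 3, bases 99240381 to 99354259, + strand of GRCm38), a T-box factor of subcutaneous stroma and dermis, read 0.117 and 0.0598 CPM in eWAT and 54.3 and 63.002 CPM in iWAT (log2 difference 9.21, SE 0.305, edgeR adjusted p = 8.37e-05). Shox2 (chromosome 3, bases 66971727 to 66981771, - strand), a homeobox gene of limb mesenchyme, read 0 and 0.0598 CPM in eWAT and 54.6 and 52.9 CPM in iWAT. Its 1567 iWAT UMIs met 1 eWAT UMI, a depth-scaled ratio of 2280 (95% counting interval 409 to 90300). All iWAT cells pooled thus gave strong signals for genes that were near the detection limit in eWAT.

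The Iroquois genes, homeobox factors that subdivide territories in limb and body wall, were higher in iWAT together. Irx2, which is no member of the list and was named for its difference, read 0.117 and 0.1197 CPM in eWAT and 19.8 and 26.1 CPM in iWAT (log2 difference 7.55, SE 0.34, edgeR adjusted p = 9.41e-05). Irx5 read 0.117 and 0.0598 CPM in eWAT and 17.2 and 25.5 CPM in iWAT, with a log2 difference of 7.74. Irx1 read 0 and 0.1197 CPM in eWAT and 19.95 and 25.5 CPM in iWAT, and its ratio was 470 (95% counting interval 130 to 3890). Irx3 was lower in level, at 0.156 and 0.0598 CPM in eWAT and 2.83 and 5.604 CPM in iWAT (log2 difference 5.100). All 4 were several times higher in each iWAT library than in either eWAT library.

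Tbx5, a factor of forelimb and heart fields, read 0.07795 and 0.239 CPM in eWAT and 24.98 and 22.6 CPM in iWAT (log2 difference 7.35, SE 0.37, edgeR adjusted p = 1.28e-04). En1, which marks the ventral limb ectoderm and the dermomyotome of the embryo, was present in both depots at 3.27 and 3.29 CPM in eWAT and 33.8 and 37.9 CPM in iWAT (log2 difference 3.49, SE 0.19, edgeR adjusted p = 1.50e-04). Emx2, a homeobox gene of the urogenital and girdle fields, was likewise graded rather than absent, at 6.47 and 7.3001 CPM in eWAT and 51.8 and 60.2 CPM in iWAT (log2 difference 3.07). Osr2 read 11.6 and 18.8 CPM in eWAT and 123 and 142 CPM in iWAT (log2 difference 3.19). Lhx8 had no eWAT UMI against 1.16 and 3.06 CPM in iWAT, at least 27.2-fold higher, and Pitx1, a hindlimb factor, had 3 eWAT UMIs, with a ratio of 42.3 (95% counting interval 14 to 209).

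Mesenchymal factors that both depots use differed less. Prrx1, a general factor of limb and connective tissue mesenchyme, read 245 and 248 CPM in eWAT and 801 and 761 CPM in iWAT (log2 difference 1.72, SE 0.195, edgeR adjusted p = 0.00213). Twist1 read 88.3 and 91.8 CPM in eWAT and 179 and 184 CPM in iWAT (log2 difference 1.06), Msx1 13.6 and 16.8 CPM in eWAT and 37.9 and 33.1 CPM in iWAT (log2 difference 1.29) and Meox2 3.66 and 4.91 CPM in eWAT and 17.1 and 23.1 CPM in iWAT (log2 difference 2.29). Each was higher in both iWAT libraries, by 1.06 to 2.29 on the log2 scale.

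On the eWAT side, Tcf21 (chromosome 10, bases 22817281 to 22820174, - strand), a basic helix-loop-helix factor of visceral mesoderm, read 175 and 156 CPM in eWAT and had 0 UMIs in both iWAT libraries, at least 1630-fold lower there. Wt1 (chromosome 2, bases 105126529 to 105173616, + strand), the Wilms tumour factor of mesothelium and its descendants, read 165 and 165 CPM in eWAT and again had 0 UMIs in iWAT (at least 1600-fold lower). Its eWAT level was 0.37 of that in mesothelial-like cells, and the part of their RNA was not tested. Alx1, a homeobox gene, read 4.33 and 7.78 CPM in eWAT and had no iWAT UMI (at least 55.1-fold lower). For these 3 genes the depots did not overlap, as for 56.3% of all genes tested.

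Other eWAT-side factors were present in both depots. Gata6, a factor of visceral mesoderm and of serosal cells, read 78.03 and 97.9 CPM in eWAT and 35.2 and 44.7 CPM in iWAT (log2 difference -1.08, SE 0.16, edgeR adjusted p = 0.00627). Foxc1 read 24.3 and 18.9 CPM in eWAT and 2.89 and 2.89 CPM in iWAT (log2 difference -2.86, SE 0.27, edgeR adjusted p = 0.00102), and Nr2f1, an orphan nuclear receptor, 45.6 and 70.01 CPM in eWAT and 19.7 and 22.6 CPM in iWAT (log2 difference -1.38). Nr2f2 read 79.5 and 145 CPM in eWAT and 34.5 and 50.6 CPM in iWAT (log2 difference -1.33), a call lost without eWAT replicate 2 (adjusted p = 0.0523). Foxp2 (-1.36), Foxf1 (-2.81), Meox1 (-2.27) and Osr1 (-0.87, at 211 and 331 CPM in eWAT and 138 and 144 CPM in iWAT) were called higher in eWAT as well, and each lost the call without eWAT replicate 2, and all but Foxp2 also without other libraries.

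Hox genes are laid out along their clusters in the order in which they pattern the body from front to back. Of 25 tested in APC-like cells, 7 were called and 18 were not, among them Hoxc9 and Hoxd9 (log2 differences 0.50 and -0.92, edgeR adjusted p = 0.108 and 0.288). Of those called, the posterior members Hoxa9, Hoxa10, Hoxc10 and Hoxc11 were higher in iWAT, and the more anterior Hoxa3, Hoxa5 and Hoxa7 higher in eWAT. Hoxc10 (chromosome 15, bases 102966796 to 102971893, + strand) read 1.91 and 2.03 CPM in eWAT and 44.9 and 41.9 CPM in iWAT (log2 difference 4.51, SE 0.21, edgeR adjusted p = 9.41e-05). Hoxa10 read 1.56 and 1.32 CPM in eWAT and 17.8 and 19.3 CPM in iWAT (log2 difference 3.71), and Hoxa9 1.09 and 1.795 CPM in eWAT and 11.3 and 19.95 CPM in iWAT (log2 difference 3.502). Hoxc11 was lower in level, at 0.117 and 0.1197 CPM in eWAT and 3.41 and 2.97 CPM in iWAT. Conversely, Hoxa5 read 54.7 and 75.3 CPM in eWAT and 8.73 and 16.9 CPM in iWAT (log2 difference -2.31, SE 0.28, edgeR adjusted p = 0.00277) and Hoxa7 56.2 and 78.6 CPM in eWAT and 20.3 and 24.03 CPM in iWAT (log2 difference -1.54, SE 0.17, edgeR adjusted p = 0.00212). Hoxa3 had a log2 difference of -0.95 and lost its call without eWAT replicate 2 (adjusted p = 0.179) or iWAT replicate 1 (adjusted p = 0.136), with thinned cells (adjusted p = 0.152) and with library size alone (adjusted p = 0.0818).

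**Figure D2:**
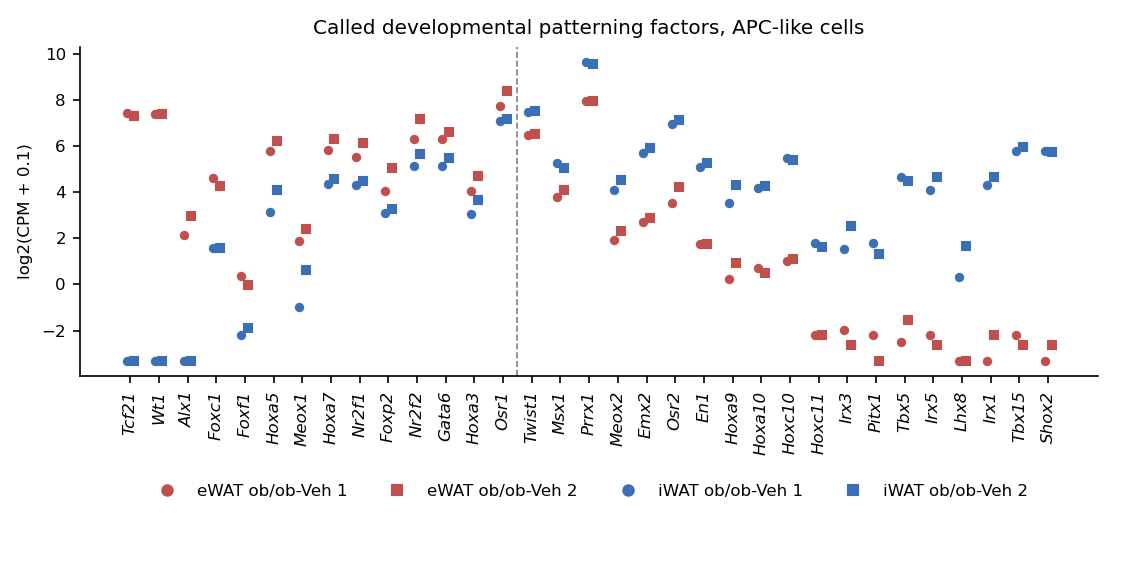
Level of 33 of the 34 developmental patterning factors called in APC-like cells, as log2(CPM + 0.1), with a point for each of the 2 eWAT and 2 iWAT libraries labelled ob/ob-Veh. The dashed line separates the 14 plotted factors higher in eWAT from the 19 higher in iWAT, and the points of the depots do not overlap for any of them. Only called factors are plotted, which favours this, and the depots did not overlap for 56.3% of all genes tested in APC-like cells.

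Among the genes named for APC-like cells outside the patterning list, Il1r2, a decoy receptor for interleukin-1, read 4.56 and 3.05 CPM in eWAT and 650.04 and 581 CPM in iWAT (log2 difference 7.35, SE 0.34, edgeR adjusted p = 9.41e-05). Mmp3, the metalloproteinase stromelysin-1, read 9.198 and 4.67 CPM in eWAT and 521 and 539.8 CPM in iWAT (log2 difference 6.26, SE 0.41, edgeR adjusted p = 2.64e-04). Adh7, a retinol-oxidising alcohol dehydrogenase, read 0.351 and 1.02 CPM in eWAT and 65.8 and 92.9 CPM in iWAT (log2 difference 7.0), and Dhrs9, another retinol dehydrogenase, 0.3898 and 0.239 CPM in eWAT and 36.1 and 20.97 CPM in iWAT (log2 difference 6.47). On the eWAT side, Hp, which encodes the haemoglobin-binding protein haptoglobin, read 326 and 308 CPM in eWAT and 0.694 and 1.27 CPM in iWAT (log2 difference -8.33, SE 0.301, edgeR adjusted p = 8.37e-05). Col6a5, a collagen VI chain, read 492 and 799 CPM in eWAT and 7.69 and 2.72 CPM in iWAT (log2 difference -6.81, SE 0.53, edgeR adjusted p = 4.51e-04). Hpca, Enpp6 and Lrrn2 followed, with log2 differences of -7.39, -7.12 and -6.21. The fitted folds of these 9 genes ranged from 74.2 (Lrrn2) to 322 (Hp).

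Wnt, BMP and TGF-beta ligands and their modulators steer precursors between self-renewal and adipogenesis. Of 43 tested, 16 (12, 12, 16, 13) were called higher in iWAT and 11 (12, 7, 9, 8) higher in eWAT (median 0.54), beside 7.96% and 7.32% of all genes. Wnt2, a canonical Wnt ligand, read 2.42 and 1.32 CPM in eWAT and 118 and 71.5 CPM in iWAT (log2 difference 5.66, SE 0.43, edgeR adjusted p = 4.14e-04). Bmp3, a BMP that antagonises other BMPs, read 0.702 and 0.359 CPM in eWAT and 26.4 and 44.2 CPM in iWAT (log2 difference 5.98). Chrdl1, a secreted BMP antagonist, read 8.46 and 6.52 CPM in eWAT and 217 and 175 CPM in iWAT (log2 difference 4.75, SE 0.28, edgeR adjusted p = 1.63e-04), and Wnt16 0.03898 and 0.239 CPM in eWAT and 2.603 and 3.57 CPM in iWAT (log2 difference 4.62). These 4 were higher in both iWAT libraries, with fitted folds from 24.6 to 63.1.

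Insulin-like growth factors (IGFs) act through a receptor and are held by binding proteins. Igfbp5, which binds IGF in the matrix, read 229 and 125 CPM in eWAT and 4382 and 4086 CPM in iWAT (log2 difference 4.61, SE 0.41, edgeR adjusted p = 7.52e-04). Igf1, the ligand, read 792 and 1070.1 CPM in eWAT and 228 and 106 CPM in iWAT (log2 difference -2.39, SE 0.39, edgeR adjusted p = 0.00863), and Pappa, a protease that frees IGF from binding proteins, 14.5 and 32.5 CPM in eWAT and 0.752 and 3.82 CPM in iWAT (log2 difference -3.38, SE 0.61, edgeR adjusted p = 0.0129). The binding protein was thus higher in iWAT, and the ligand and the protease higher in eWAT. Igfbp2, another binding protein, passed on the eWAT side (edgeR adjusted p = 0.0241, and 0.0735 to 0.083 without eWAT replicate 2 or either iWAT replicate), with 30 eWAT UMIs, no iWAT UMI and at least 6.86-fold lower there. Its eWAT level was 0.00414 of the level in mesothelial-like cells, which were found almost only in eWAT, and the part of their RNA was not tested. Of 16 members tested, 2 (1, 1, 3, 2) were called higher in iWAT and 4 (3, 3, 3, 3) higher in eWAT (median 0.47), beside 7.96% and 7.32% of all genes.

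Of the steroid hormone genes, Sult1e1, which inactivates oestrogen by sulfation, read 1309.6 and 1227 CPM in eWAT and 145 and 136 CPM in iWAT (log2 difference -3.12, SE 0.22, edgeR adjusted p = 3.45e-04). Cyp1b1, an oestrogen- and retinoid-metabolising cytochrome P450, read 321 and 442 CPM in eWAT and 44.6 and 106 CPM in iWAT (log2 difference -2.301, SE 0.36, edgeR adjusted p = 0.00718). Akr1c18, a dehydrogenase that inactivates progesterone, was on the other side, at 1.598 and 1.68 CPM in eWAT and 44.99 and 39.5 CPM in iWAT (log2 difference 4.74). In the list of 17 tested members, 2 (2, 2, 2, 3) were called higher in iWAT, near the 7.96% of all genes, and 4 (3, 2, 3, 3) higher in eWAT, beside 7.32% (median 0.28).

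Collagens gave 6 (2, 2, 3, 3) of 27 called higher in iWAT and 8 (7, 4, 7, 8) higher in eWAT (median -0.04, and 0.0647 with thinned cells), beside 7.96% and 7.32% of all genes. The iWAT count was near that share with any library left out. Col12a1, a fibril-associated collagen, read 8.22 and 11.8 CPM in eWAT and 57.6 and 50.5 CPM in iWAT (log2 difference 2.51), and Col4a6, a basement membrane chain, 28.9 and 49.8 CPM in eWAT and 2.37 and 2.72 CPM in iWAT (log2 difference -3.88). Other extracellular matrix genes gave 12 (10, 5, 8, 10) and 11 (8, 9, 10, 9) of 69 (median 0.15). Thbs1, the anti-angiogenic and TGF-beta-activating thrombospondin, was the leading eWAT member at 162 and 119.8 CPM in eWAT and 3.701 and 7.56 CPM in iWAT (log2 difference -4.65, SE 0.36, edgeR adjusted p = 4.39e-04). Ltbp2 read 4.13 and 5.45 CPM in eWAT and 0.231 and 0.255 CPM in iWAT (log2 difference -4.199).

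Of 22 complement genes tested in APC-like cells, 12 (11, 11, 11, 11) were called higher in iWAT and 2 (2, 0, 0, 2) higher in eWAT, beside 7.96% and 7.32% of all genes, and the median was 1.08. C4b, a core component of the classical pathway that stromal cells make themselves, read 80.9 and 103 CPM in eWAT and 1206 and 1095 CPM in iWAT (log2 difference 3.71, SE 0.22, edgeR adjusted p = 1.63e-04). Cfb, the factor B of the alternative pathway, read 9.35 and 7.599 CPM in eWAT and 37.7 and 29.2 CPM in iWAT (log2 difference 2.03). C1qa, a macrophage product, is in the list too, at 45.4 and 62.1 CPM in eWAT and 252 and 184 CPM in iWAT, which was 0.05 of its level in iWAT PVM-like cells.

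Macrophage genes were also measured within APC-like cells, to be read against 7.96% of all genes called higher in iWAT and 7.32% higher in eWAT. Alternative and resident macrophage genes gave 19 (15, 18, 20, 16) of 30 higher in iWAT and 2 (1, 2, 1, 1) higher in eWAT (median 1.60), led by the chemokine Ccl8 at 8.77 and 10.7 CPM in eWAT and 135 and 152 CPM in iWAT, 0.08 of its PVM-like level. The 11 PVM markers summed to 1.78% and 2.2% of their PVM-like level in eWAT APC-like cells and to 7.56% and 5.81% in iWAT APC-like cells. RNA of macrophages was thus more frequent in the iWAT class, and its part in these counts was not tested. C4b and Cfb stood at 0.79 and 0.85 of their PVM-like level.

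Chemokines gave 7 (6, 6, 9, 5) of 23 higher in iWAT and 3 (1, 3, 3, 2) higher in eWAT (median 0.74), beside 7.96% and 7.32% of all genes. The eWAT count is not far above that share. Cxcl13, which attracts B cells, read 20.5 and 17.8 CPM in eWAT and 328 and 405 CPM in iWAT (log2 difference 4.29, SE 0.22, edgeR adjusted p = 1.28e-04). Ccl11, or eotaxin, was higher in eWAT at 1009 and 1255 CPM in eWAT and 207 and 403 CPM in iWAT (log2 difference -1.85).

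Interferon-stimulated genes, which cells turn on when interferon receptors signal, were all on 1 side. Of 37 tested, 20 (12, 10, 14, 20) were called higher in iWAT and none higher in eWAT, against 7.96% of all genes in the iWAT direction, and each of the 37 had a positive log2 difference (median 0.95). Usp18, a negative regulator of the interferon receptor, read 6.12 and 5.804 CPM in eWAT and 40.8 and 48.4 CPM in iWAT (log2 difference 2.94, SE 0.19, edgeR adjusted p = 2.57e-04). Oas3, a sensor of double-stranded RNA, read 0.3898 and 0.299 CPM in eWAT and 3.18 and 2.12 CPM in iWAT (log2 difference 2.96, SE 0.51, edgeR adjusted p = 0.011). Cxcl10, a T cell chemokine, read 37.2 and 41.1 CPM in eWAT and 137 and 84.2 CPM in iWAT (log2 difference 1.57, SE 0.27, edgeR adjusted p = 0.0105). Both iWAT libraries lay above both eWAT libraries for these 3 genes, though Oas3 lost its call without eWAT replicate 2 (adjusted p = 0.0564) or iWAT replicate 1 (adjusted p = 0.0523). Usp18 stood highest in APC-like cells, whereas Oas3 was at 0.09 of its PVM-like level. Ifi44 and Mx1 passed too (log2 differences 3.26 and 2.58), at 0.05 of the EC-like and 0.09 of the DC-like level. Mx1 lost its call without eWAT replicate 2 (adjusted p = 0.0678), and Ifi44 with any library but iWAT replicate 2 left out (adjusted p = 0.0518 to 0.276). For such members the macrophage and other RNA in the class, given above, was not separated from its own. A sub-cluster of the iWAT cells, with 103 and 73 cells, had Ifit1, Ifit3 and Isg15 among its leading genes. Its part in these differences was not tested.

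Promoters of these genes are known to carry the interferon-stimulated response element (ISRE), to which interferon regulatory factors (IRFs) bind. Its core was searched as GAAA, any 2 bases and GAAA again, on either strand, from 250 bases before to 50 bases after the gene start in RefSeq promoters of GRCm38.p6. A match was found in 400 of 10224 promoters of genes tested (3.91%) and in 16 of 28 interferon-stimulated genes that had a promoter entry (57.1%). Of the 20 interferon-stimulated genes called higher in iWAT, 12 had a promoter entry, and 7 of these held a match (58.3%). A match is a description and not a bound site, and the list itself is defined by this response. Shown are the windows of Oas3, of Cxcl10, which the naming rule took from the TNF target list, and of Isg15 and Stat2, which were chosen after their values were seen. The windows read 5-prime to 3-prime on the strand of the gene, and capitals mark the match.
Oas3 (chr5:120777715-120777744, minus strand, match 75 bases before the start): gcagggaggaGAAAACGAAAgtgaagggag
Isg15 (chr4:156200871-156200900, minus strand, match 72 bases before the start): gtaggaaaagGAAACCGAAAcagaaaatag
Cxcl10 (chr5:92349083-92349112, minus strand, match 213 bases before the start): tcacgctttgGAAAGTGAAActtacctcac
Stat2 (chr10:128270266-128270295, plus strand, match 222 bases before the start): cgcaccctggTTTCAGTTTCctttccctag

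The Stat2 match lies on the opposite strand, and the Isg15 match overlaps 2 further matches. Isg15, a ubiquitin-like modifier, read 14.3 and 13.3 CPM in eWAT and 27.3 and 21.99 CPM in iWAT (log2 difference 0.89, SE 0.22, edgeR adjusted p = 0.0359). Stat2 read 27.4 and 35.004 CPM in eWAT and 49.97 and 65.7 CPM in iWAT (log2 difference 0.95, SE 0.17, edgeR adjusted p = 0.013). The call of Isg15 was lost with any library but iWAT replicate 2 left out (adjusted p = 0.0568 to 0.153) and with thinned cells (log2 difference 0.55, adjusted p = 0.33), and that of Stat2 without eWAT replicate 1 (adjusted p = 0.0631). The difference of Stat2 was thus less than 2-fold, in contrast to Usp18 and Oas3.

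Oxidative phosphorylation genes were on the eWAT side, with 22 (3, 5, 11, 3) of 89 higher in eWAT and 1 (0, 0, 1, 0) higher in iWAT (median -0.47), beside 7.32% and 7.96% of all genes. Atp5g1, a subunit of ATP synthase, read 161 and 165 CPM in eWAT and 63.7 and 50.9 CPM in iWAT (log2 difference -1.45, SE 0.199, edgeR adjusted p = 0.00459). The eWAT count fell to 3 when eWAT replicate 1 or iWAT replicate 2 was left out. The 13 mitochondrially encoded genes gave 1 (2, 0, 1, 0) higher in iWAT and 0 (0, 0, 0, 0) higher in eWAT (median 0.14). Cholesterol synthesis genes gave 5 (3, 0, 3, 1) of 22 higher in eWAT and 0 (0, 0, 0, 0) in iWAT (median -0.55), a list that also shrank with libraries left out. Ribosomal protein genes gave 1 (1, 1, 1, 1) in iWAT and 0 (0, 0, 0, 0) in eWAT of 82 (median -0.32), but 31 were called higher in eWAT with thinned cells. Of 37 initiation and elongation factors, 1 (1, 1, 1, 1) was higher in iWAT, Eif4e at 87.2 and 65.9 CPM in eWAT and 207 and 222 CPM in iWAT (log2 difference 1.52, SE 0.22, edgeR adjusted p = 0.00601), and 2 (0, 0, 0, 0) were higher in eWAT (median -0.23).

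The lists of stress, adipogenic and immune genes held calls on both sides in APC-like cells, to be read against 7.96% and 7.32% of all genes. Among hypoxia and glycolysis genes, 2 (2, 1, 2, 1) of 29 were higher in iWAT and 3 (1, 1, 3, 1) in eWAT (median -0.17). Vegfa, the main angiogenic growth factor, read 30.3 and 29.1 CPM in eWAT and 90.8 and 126 CPM in iWAT (log2 difference 1.902, SE 0.19, edgeR adjusted p = 0.00131), while the glycolytic gene Gapdh read 251 and 273 CPM in eWAT and 119 and 109.8 CPM in iWAT (log2 difference -1.14). TNF and NF-kappaB targets gave 8 (7, 2, 2, 4) and 6 (5, 7, 7, 5) of 45 (median 0.22). The dissociation response, immediate early and heat shock genes that tissue digestion induces, gave 4 (3, 0, 0, 0) and 5 (5, 6, 5, 6) of 36 (median 0.05, and -0.00219 with thinned cells). Its member Socs3, a feedback inhibitor of cytokine and leptin receptors, read 818 and 639.5 CPM in eWAT and 278 and 268 CPM in iWAT (log2 difference -1.38). PPAR and adipogenesis genes gave 4 (3, 3, 5, 3) and 4 (2, 3, 3, 6) of 43 (median -0.16). In them, Plin4, which coats lipid droplets, read 0.663 and 1.97 CPM in eWAT and 8.56 and 33.8 CPM in iWAT (log2 difference 4.101), and Fabp5, a fatty acid binding protein, 39.7 and 44.3 CPM in eWAT and 5.899 and 9.59 CPM in iWAT (log2 difference -2.41). Endothelial lipid uptake genes gave 2 (2, 2, 3, 2) and 2 (1, 1, 1, 3) of 17 (median -0.21), and lipid-associated macrophage genes 5 (0, 2, 3, 4) and 1 (1, 1, 1, 1) of 21 (median 0.24). None of 8 MHC class II genes was called by edgeR (median 0.09). In the same fit 3 of them, all higher in iWAT, had an unadjusted p under 0.05, and DESeq2 called 2.

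The APC-like cells were divided further by markers into progenitor-like cells (1599 and 777 in eWAT, 1805 and 1223 in iWAT) and preadipocyte-like cells (2206 and 1950 in eWAT, 433 and 1023 in iWAT). The depots were divided separately, and cells in neither group were 283 and 267 in eWAT (6.92% and 8.92%) but 998 and 1329 in iWAT (30.8% and 37.2%), where they held 58.8% and 45.1% of the APC-like UMIs. The most numerous iWAT cluster in neither, of 1240 cells led by Ptx3, Ptgs2 and Il6, had a median of 10280 UMIs per cell, and with coarser or finer clusters such a cluster was named progenitor-like. In eWAT a cluster led by Ptgs2, Ccl2 and Has1, of 1046 cells with a median of 8640 UMIs, was kept as progenitor-like. The iWAT clusters named progenitor-like scored 0.1051 to 0.8297 for progenitor markers (mean log2 level over the other APC-like cells of the depot). Those of eWAT scored 1.043 to 1.42, and an unnamed iWAT cluster scored 0.3047. The lowest-scoring one held 878 and 93 progenitor-like cells of iWAT replicates 1 and 2 and had Retnla, C1qa and Mrc1 among its leading genes. Differences between depots within a group thus compare different portions of the class. In all APC-like cells the progenitor markers Pi16 and Dpp4 were higher in iWAT, Pi16 at 599 and 454 CPM in eWAT and 3059 and 2789 CPM in iWAT (log2 difference 2.51, SE 0.28, edgeR adjusted p = 0.0019) and Dpp4 at 149 and 99.3 CPM in eWAT and 529 and 598 CPM in iWAT (log2 difference 2.21, SE 0.28, edgeR adjusted p = 0.00316). Both also differed within progenitor-like cells, where Pi16 read 1150.3 and 1259 CPM in eWAT and 4499 and 4384 CPM in iWAT (log2 difference 1.81) and Dpp4 279 and 267 CPM in eWAT and 606 and 860.04 CPM in iWAT (log2 difference 1.34, and edgeR adjusted p = 0.0525 without eWAT replicate 1). Icam1, the preadipocyte marker, read 48.8 and 66.4 CPM in eWAT and 34.9 and 67.2 CPM in iWAT in all APC-like cells and did not pass (log2 difference -0.13, edgeR adjusted p = 0.804). It was lower in iWAT in progenitor-like cells (log2 difference -1.78) and higher in preadipocyte-like cells (log2 difference 1.44, at 47.7 and 59.3 CPM in eWAT and 108 and 164 CPM in iWAT). Since markers name these groups, such values describe them.

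Progenitor-like cells held 1289 genes called higher in iWAT and 1528 higher in eWAT, 24.2% of 11646 tested (11.1% and 13.1% by direction), with 780 (without eWAT replicate 1) to 2098 calls when a library was left out. Preadipocyte-like cells held 802 and 817, 13.2% of 12230 (6.56% and 6.68% by direction), with 1147 to 1785 under the same settings. The patterning factors separated in both groups. Shox2 had no eWAT UMI in either, and was at least 258-fold higher in iWAT progenitor-like cells and at least 474-fold higher in iWAT preadipocyte-like cells. Tcf21 had no iWAT UMI in either, at least 401-fold and at least 324-fold lower. Tbx15 was at least 519-fold higher in preadipocyte-like cells, and in progenitor-like cells 3 eWAT UMIs gave a ratio of 242 (95% counting interval 82 to 1180). Of the patterning list, 20 (14, 18, 20, 17) and 14 (11, 11, 12, 12) of 54 were called in progenitor-like cells (iWAT and eWAT, median -0.11), and 17 (16, 17, 18, 13) and 10 (11, 8, 11, 9) of 53 in preadipocyte-like cells (median -0.06).

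In progenitor-like cells, 11 (7, 9, 14, 11) Wnt, BMP and TGF-beta genes were called higher in iWAT and 6 (6, 6, 6, 6) higher in eWAT of 37 (median 0.42). Over all genes of this group, 11.1% were called higher in iWAT and 13.1% higher in eWAT. Bmp3 read 1.37 and 0.394 CPM in eWAT and 57.1 and 112 CPM in iWAT (log2 difference 6.19), Wnt2 4.97 and 2.76 CPM in eWAT and 151 and 102 CPM in iWAT (log2 difference 4.84) and Dkk2, a Wnt antagonist, 1.28 and 1.58 CPM in eWAT and 31.8 and 35.4 CPM in iWAT (log2 difference 4.47). The Wnt agonist Rspo1 was on the eWAT side, at 49.8 and 62.1 CPM in eWAT and 1.74 and 3.86 CPM in iWAT (log2 difference -4.46). C4b read 25.1 and 38.6 CPM in eWAT and 1216 and 802 CPM in iWAT (log2 difference 4.94, SE 0.31, edgeR adjusted p = 2.42e-05), and complement genes gave 13 (10, 12, 11, 12) and 2 (1, 0, 0, 1) of 21 (median 1.87). Alternative and resident macrophage genes gave 23 (17, 22, 20, 22) and 0 (0, 1, 1, 0) of 27 (median 2.17), and the PVM markers stood at 1.02% and 1.37% of their PVM-like level in eWAT progenitor-like cells and at 9.52% and 5.55% in iWAT. The part of macrophage RNA in the complement count was not tested. Other extracellular matrix genes gave 9 (4, 8, 7, 7) and 15 (9, 12, 15, 15) of 63 (median -0.06), and insulin-like growth factors and binding proteins 3 (1, 4, 4, 3) and 1 (1, 1, 2, 2) of 12 (median 0.496). The iWAT matrix count and the eWAT count of insulin-like growth factors and binding proteins were not far from the shares of all genes. Higher in eWAT were Ltbp4, which holds latent TGF-beta, at 609 and 966 CPM in eWAT and 29.8 and 53.8 CPM in iWAT (log2 difference -4.303), and Igfbp7 at 573 and 698 CPM in eWAT and 75.5 and 57.3 CPM in iWAT (log2 difference -3.32). Thbs1 read 115 and 98.3 CPM in eWAT and 2.52 and 1.49 CPM in iWAT (log2 difference -5.74, SE 0.32, edgeR adjusted p = 1.37e-05). In this group, 68 (7, 52, 50, 61) of 82 ribosomal protein genes and 58 (5, 43, 37, 33) of 86 oxidative phosphorylation genes were called higher in eWAT (medians -1.17 and -0.79). They were 3 and 10 with coarser clusters, 49 and 41 with finer clusters and 9 and 11 with cells assigned singly, while all APC-like cells together gave 0 (0, 0, 0, 0) and 22 (3, 5, 11, 3). The median depth was 7778 and 5710 UMIs per cell in eWAT and 2035 and 2170 in iWAT, without the deep iWAT cluster above, and with every progenitor-like cell thinned to 700 UMIs 64 and 27 were called.

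In preadipocyte-like cells the genes named for their list or their difference included matrix, BMP, retinoid and lipid genes. List counts in this group are to be read against 6.56% of all genes higher in iWAT and 6.68% higher in eWAT. The interferon count of progenitor-like cells, given below, is to be read against their 11.1% higher in iWAT. The eWAT count of PPAR and adipogenesis genes was near that share. Mmp3 read 13.7 and 4.03 CPM in eWAT and 1788 and 1222 CPM in iWAT (log2 difference 7.44, SE 0.58, edgeR adjusted p = 2.91e-05), and Col1a1, the main fibrillar collagen, 1451 and 1592 CPM in eWAT and 12515 and 7064 CPM in iWAT (log2 difference 2.79). Of the collagens, 11 (10, 10, 14, 10) of 27 were called higher in iWAT and 5 (4, 4, 4, 4) higher in eWAT (median 0.57). Chrdl1 read 4.62 and 3.34 CPM in eWAT and 425 and 203 CPM in iWAT (log2 difference 6.37, SE 0.42, edgeR adjusted p = 1.50e-05). Cyp26b1, which degrades retinoic acid, read 2.11 and 0.983 CPM in eWAT and 122 and 81.5 CPM in iWAT (log2 difference 6.06). PPAR and adipogenesis genes gave 5 (5, 5, 8, 4) higher in iWAT and 3 (2, 4, 3, 5) in eWAT of 42 (median 0.02). Of these, Plin4 and Cd36 read 1.17 and 2.95 CPM in eWAT and 54.3 and 104 CPM in iWAT and 53.5 and 68.2 CPM in eWAT and 174 and 247 CPM in iWAT, with log2 differences of 5.402 and 1.88. Esr1, the oestrogen receptor alpha gene, read 24.02 and 15.7 CPM in eWAT and 97.5 and 98.2 CPM in iWAT (log2 difference 2.36), and Vegfa 21.4 and 20.7 CPM in eWAT and 102 and 131 CPM in iWAT (log2 difference 2.55). In eWAT, Hp read 439 and 364 CPM against 1.02 and 1.61 CPM in iWAT, and Inhbb, an activin and inhibin subunit, 87.9 and 79.2 CPM against 0 and 4.19 CPM. Interferon-stimulated genes gave 12 (7, 8, 12, 10) of 37 higher in iWAT here and 14 (3, 9, 10, 12) of 35 in progenitor-like cells, none higher in eWAT in either. Alternative and resident macrophage genes gave 18 (17, 19, 20, 18) and 1 (2, 2, 2, 1) of 27 in preadipocyte-like cells (median 1.77), where the PVM markers stood at 2.2% and 2.34% of their PVM-like level in eWAT and at 19.9% and 8.27% in iWAT, and the part of macrophage RNA was not tested.

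The difference between the 2 groups was tested as an interaction, in which 924 genes passed, 7.49% of 12343. Of the 1289 genes higher in iWAT in progenitor-like cells, 168 had a larger difference there than in preadipocyte-like cells, and of the 1528 higher in eWAT, 307. Conversely, 157 of the 802 and 81 of the 817 preadipocyte-like calls were larger in that group. The genes were picked by calls on the same sums, which favours the group of the call, so these counts are descriptive. Il1r2 was more strongly iWAT-sided in progenitor-like cells, by 2.07 on the log2 scale (edgeR adjusted p = 2.22e-04). Igfbp5 and Chrdl1 were more strongly iWAT-sided in preadipocyte-like cells, by 1.88 and 1.94 (interaction -1.88 and -1.94, edgeR adjusted p = 1.65e-04 and 0.00243). Socs3 (interaction -2.18) and Thbs1 (interaction -2.70) were more eWAT-sided in progenitor-like cells. Only eWAT kept its deep cluster led by Ptgs2 in that group, and the part of that cluster was not tested. For Hp, Wnt2, Mmp3 and Sult1e1 the interaction did not pass.

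PVM-like cells, 1894 and 1849 in eWAT and 2686 and 2057 in iWAT, held 515 genes called higher in iWAT and 444 higher in eWAT, 8.29% of 11563 (4.45% and 3.84% by direction). The count was 391 without iWAT replicate 1, 480 without eWAT replicate 2 and up to 1200 otherwise, and with library size alone in place of TMM the split was 547 to 168. Cluster 2 held 73.07% and 85.02% of the class in eWAT, and clusters 1 and 4 most of it in iWAT. Interferon-stimulated genes were again on the iWAT side, with 22 (23, 16, 15, 25) of 37 called against 4.45% of all genes, none higher in eWAT, and a median of 1.12. Rsad2, the antiviral viperin, read 28.9 and 16.5 CPM in eWAT and 241 and 133 CPM in iWAT (log2 difference 2.95, SE 0.39, edgeR adjusted p = 0.00679). Ifi213, a nucleic acid sensor of the p200 family, read 9.98 and 5.62 CPM in eWAT and 96.4 and 78.9 CPM in iWAT (log2 difference 3.403, SE 0.31, edgeR adjusted p = 0.00293), and Ifi44 0.447 and 0.112 CPM in eWAT and 37.1 and 20.1 CPM in iWAT (log2 difference 6.61, SE 0.59, edgeR adjusted p = 0.00278). All 3 were higher in both iWAT libraries, and Ifi44 was near the detection limit in eWAT.

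Other PVM-like genes included a complement component, a chemokine and an iron exporter. C6, of the terminal complement pathway, read 27.4 and 20.01 CPM in eWAT and 319 and 284 CPM in iWAT (log2 difference 3.56, SE 0.26, edgeR adjusted p = 0.00148), and Cfb 5.96 and 5.17 CPM in eWAT and 50.1 and 25.5 CPM in iWAT (log2 difference 2.68). Ccl8, a monocyte attractant that resident macrophages make, read 410.2 and 468 CPM in eWAT and 1688 and 1931 CPM in iWAT (log2 difference 1.94, SE 0.23, edgeR adjusted p = 0.00548). Slc40a1, the iron exporter ferroportin, was higher in eWAT at 154 and 94.4 CPM in eWAT and 20.8 and 17.98 CPM in iWAT (log2 difference -2.79, SE 0.301, edgeR adjusted p = 0.00399). Bcl2a1b, a survival factor of the Bcl2 family, read 30.97 and 32.3 CPM in eWAT and 3.503 and 5.604 CPM in iWAT (log2 difference -2.92), and Dnase1l3, a secreted nuclease, 21.3 and 20.7 CPM in eWAT and 1.29 and 5.84 CPM in iWAT (log2 difference -2.73). Socs3 read 267 and 356 CPM in eWAT and 60.3 and 93.6 CPM in iWAT and Pdk4, which shifts cells from glucose to fat oxidation, 45.7 and 24.5 CPM in eWAT and 10.7 and 6.07 CPM in iWAT, with log2 differences of -2.13 and -2.15. Of 29 alternative and resident macrophage genes, 1 was called higher in iWAT and 1 higher in eWAT (median -0.14), near the 4.45% and 3.84% of all genes. Markers of such cells also name the class. Lipid-associated macrophage genes gave 1 and 2 of 21 (median 0.05). The eWAT counts of both lists rose without eWAT replicate 1. Trem2 read 76.2 and 88.01 CPM in eWAT and 61.9 and 19.8 CPM in iWAT and did not pass (edgeR adjusted p = 0.163), but did without iWAT replicate 1 (edgeR adjusted p = 0.00362) and with no filter on low counts (edgeR adjusted p = 6.19e-05).

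Ribosomal protein and oxidative phosphorylation genes gave 36 (62, 1, 0, 27) of 82 and 20 (36, 2, 2, 17) of 88 called higher in eWAT in PVM-like cells, none higher in iWAT (medians -1.10 and -0.71). Of all genes in PVM-like cells, 3.84% were called higher in eWAT and 4.45% higher in iWAT. With library size alone, 2 ribosomal protein genes were called. Median depth moved with them, at 3244 and 4438 UMIs per cell in eWAT and 1689 and 1642 in iWAT, as did the mitochondrial share (6.571% and 6.43% against 11.08% and 9.816%), and with every PVM-like cell thinned to 700 UMIs 24 and 12 were called.

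Stromal genes were also called in PVM-like cells. Mmp3 read 0.893 and 0.787 CPM in eWAT and 57.7 and 56.3 CPM in iWAT and Il1r2 0.893 and 0.225 CPM in eWAT and 66.9 and 58.8 CPM in iWAT, at 0.11 and 0.101 of their APC-like levels. The 10 APC markers summed to 3.15% and 3% of their APC-like level in eWAT PVM-like cells and to 10.7% and 8.99% in iWAT PVM-like cells. In NKT-like cells the shares were 16.3% and 12.3% in eWAT and 30.1% and 20.7% in iWAT. Both iWAT libraries thus lay above both eWAT libraries in these 2 classes, and the part of stromal RNA in these calls was not tested. Over all genes in PVM-like cells, 4.45% were called higher in iWAT and 3.84% higher in eWAT. Patterning factors gave 14 (12, 9, 7, 8) and 3 (3, 2, 2, 3) of 33 (iWAT and eWAT, median 1.49), collagens 12 (11, 12, 11, 11) and 1 (1, 1, 1, 1) of 21 (median 1.38), and Wnt, BMP and TGF-beta genes 13 (10, 11, 9, 11) and 1 (1, 0, 0, 1) of 27 (median 1.28). Without the genes whose level was under 0.1 of that in another class of the depot, 722 of the 959 calls were left, 326 higher in iWAT and 396 higher in eWAT.

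**Figure D3:**
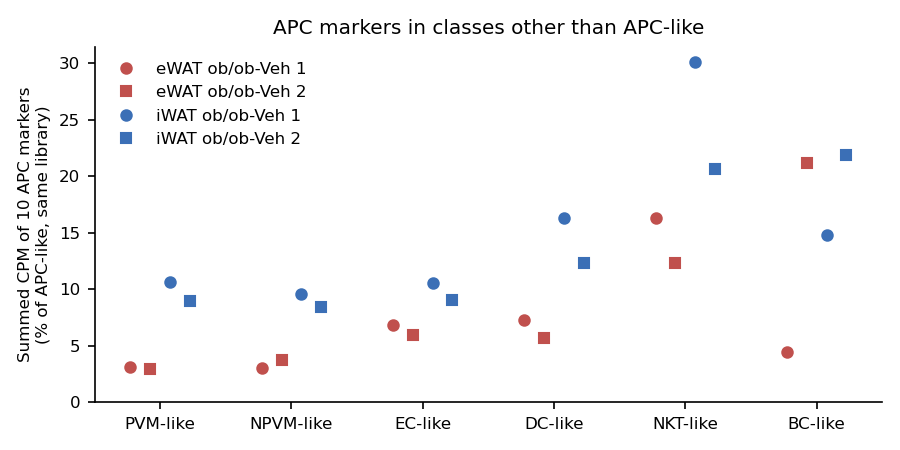
Summed CPM of the 10 APC markers in 6 other classes, as a percentage of the APC-like level of the same library, for the 2 eWAT and 2 iWAT libraries. In PVM-like cells the eWAT libraries stood at 3.15% and 3% and the iWAT libraries at 10.7% and 8.99%.

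NPVM-like cells came from a cluster that scored higher for lipid-associated macrophage markers (mean log2 level over the median cluster 2.401) than for NPVM markers (2.182), so that the name covers both kinds. They numbered 915 and 605 in eWAT and 565 and 294 in iWAT. Here 285 genes were called higher in iWAT and 627 higher in eWAT, 9.06% of 10063 (2.83% and 6.23% by direction), with 556 (without iWAT replicate 2) to 1147 when a library was left out. With library size alone the split was 338 to 286, and the median of all genes moved to 0.248, so that directions in this class are relative to TMM. Arg1, the arginase of alternatively activated macrophages, read 177 and 26.7 CPM in eWAT and had no iWAT UMI (at least 77.4-fold lower). Most of its UMIs came from eWAT replicate 1. Saa3, an acute phase protein, read 75.9 and 129 CPM in eWAT and 9.02 and 22.1 CPM in iWAT (log2 difference -3.06, SE 0.38, edgeR adjusted p = 9.18e-04, and -2.03 with adjusted p = 0.126 under stricter cell filters), and Il1b, the inflammatory cytokine, 643 and 581 CPM in eWAT and 198 and 139.9 CPM in iWAT (log2 difference -2.07). Ccl24, an eosinophil attractant, read 503.7 and 492 CPM in eWAT and 158 and 92.8 CPM in iWAT (log2 difference -2.18). These 4 were lower in both iWAT libraries.

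On the iWAT side of NPVM-like cells, 16 (12, 15, 3, 17) of 35 interferon-stimulated genes were called, none in the other direction (median 1.15). Without iWAT replicate 1 only 3 were left. Cmpk2, a mitochondrial nucleotide kinase induced by interferon, read 2.29 and 2.23 CPM in eWAT and 22.6 and 13.3 CPM in iWAT (log2 difference 2.79, SE 0.49, edgeR adjusted p = 0.00374), and Rsad2 4.21 and 5.85 CPM in eWAT and 73.7 and 20.6 CPM in iWAT, both calls lost without that library (adjusted p = 0.104 and 0.0803). Ciita, which switches on MHC class II, read 80.7 and 104 CPM in eWAT and 159 and 247 CPM in iWAT (log2 difference 0.91, lost without eWAT replicate 1 or iWAT replicate 2 and with thinned cells, adjusted p = 0.153, 0.27 and 0.332), and the heat shock gene Hspa1b 146 and 136 CPM in eWAT and 460.1 and 439 CPM in iWAT (log2 difference 1.45). Mmp12, the macrophage elastase, read 95.4 and 269 CPM in eWAT and 677 and 741 CPM in iWAT (log2 difference 1.78), but the call was lost with thinned cells, stricter cell filters or cells assigned singly (adjusted p = 0.174 to 0.256), and the sign turned with finer clusters (-0.71). Ribosomal protein genes gave 75 (69, 80, 63, 64) of 81 and oxidative phosphorylation genes 59 (44, 61, 44, 35) of 82 higher in eWAT (medians -1.48 and -1.13), beside a median of 4228 and 4120 UMIs per cell in eWAT and 1708 and 1802 in iWAT. With every NPVM-like cell thinned to 700 UMIs, 49 and 13 were called higher in eWAT. Over all genes of the class, 2.83% were called higher in iWAT and 6.23% higher in eWAT. The PVM markers stood at 14.1% and 20.4% of their PVM-like level in eWAT NPVM-like cells and at 27.6% and 24.5% in iWAT. The APC markers stood at 3.05% and 3.77% of their APC-like level in eWAT and at 9.59% and 8.43% in iWAT. The part of such RNA in the interferon count was not tested.

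EC-like cells held 123 genes called higher in iWAT and 103 higher in eWAT, 2.2% of 10267 (1.2% and 1% by direction). They numbered 244 and 575 in eWAT and 109 and 643 in iWAT, and the count ranged from 124 (without eWAT replicate 1) to 701 (without iWAT replicate 2), with 145 to 66 under library size alone. Slco2a1, a prostaglandin transporter, read 5.47 and 7.62 CPM in eWAT and 212 and 92.1 CPM in iWAT (log2 difference 4.19, SE 0.41, edgeR adjusted p = 1.92e-04). Col13a1, a transmembrane collagen, read 3.42 and 0.565 CPM in eWAT and 48.2 and 41.2 CPM in iWAT (log2 difference 4.72, SE 0.56, edgeR adjusted p = 0.00104), and Tmem35a 0.683 and 1.13 CPM in eWAT and 35.3 and 12.997 CPM in iWAT (log2 difference 4.08, not called without Scrublet calls or with stricter cell filters, adjusted p = 0.0558 and 0.0617). Scn4b, a sodium channel subunit, had 1 eWAT UMI against 22.5 and 20.3 CPM in iWAT, a ratio of 103 (95% counting interval 17.6 to 4180). Of the 6 EC-like genes named for their difference towards iWAT, these 4 stood highest in EC-like cells, while Mmp3 and Cxcl13 stood highest in APC-like cells.

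Of the 10 mural markers, all tested in EC-like cells, 4 (Rgs5, Kcnj8, Higd1b and Myh11) were called higher in eWAT and 0 higher in iWAT (median -1.46). Sox11, a factor of progenitor cells, read 25.3 and 35.9 CPM in eWAT and 0 and 3.39 CPM in iWAT (log2 difference -3.54, SE 0.53, edgeR adjusted p = 0.00366). Myl9, a myosin light chain of contractile cells, read 82.01 and 84.1 CPM in eWAT and 3.21 and 11.3 CPM in iWAT (log2 difference -3.19, SE 0.33, edgeR adjusted p = 3.79e-04), Cox4i2 22.6 and 38.7 CPM in eWAT and 0 and 4.52 CPM in iWAT (log2 difference -3.16) and Ndufa4l2 42.4 and 86.4 CPM in eWAT and 9.64 and 7.91 CPM in iWAT (log2 difference -3.11). The last 3 are known to be abundant in pericytes, and a cluster with mural and adipocyte markers (65 cells, left unnamed) held 26 and 39 eWAT cells and no iWAT cell. Within the EC-like class, 35 cells of the 4 libraries were mural-like when assigned singly. The part of mural cells was not tested. Of adipocyte products, Cfd (adipsin) read 649 and 429 CPM in eWAT and 119 and 129.97 CPM in iWAT (log2 difference -2.22) and Retn (resistin) 114 and 110.4 CPM in eWAT and 22.5 and 27.1 CPM in iWAT (log2 difference -2.22). Adipoq and Cidec passed too, but lost the call under 4 and 7 of the alternatives, among them without Scrublet calls (adjusted p = 0.0558 and 0.0817), without eWAT replicate 1 (adjusted p = 0.0726 and 0.112) and with thinned cells (adjusted p = 0.645 and 0.0719). In the EC-like class 77 cells were adipocyte-like when assigned singly, and their part was not tested. With all 12 libraries in the fit and cells assigned singly, only 2 genes were called higher in eWAT in EC-like cells and 13 higher in iWAT. That fit is not among the alternatives counted for Adipoq and Cidec.

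The dissociation response gave 9 (3, 9, 13, 14) of 36 higher in eWAT EC-like cells and 0 (0, 0, 0, 0) higher in iWAT (median -0.59), with Ier2 at 400.5 and 432 CPM in eWAT and 135 and 177 CPM in iWAT (log2 difference -1.49, but -1.07 with adjusted p = 0.0693 with thinned cells). PPAR and adipogenesis genes gave 5 (2, 8, 10, 8) and 0 (0, 0, 1, 0) of 48 (eWAT and iWAT, median -0.19). Of all genes in EC-like cells, 1.2% were called higher in iWAT and 1% higher in eWAT, so that list counts of 0 lie near those shares. None of 33 interferon-stimulated genes was called in EC-like cells by edgeR or DESeq2 (median 0.16, and -0.056 with thinned cells), and at an unadjusted p under 0.05 there were 5 in iWAT and 2 in eWAT. Nor was any of 81 ribosomal protein genes called by edgeR (median -0.68). Of these, 45 had an unadjusted p under 0.05, all higher in eWAT, and DESeq2 called 6. Endothelial lipid uptake genes gave 1 (0, 1, 4, 5) of 17 in eWAT and 0 (0, 0, 0, 0) in iWAT (median -0.16). Insr, the insulin receptor gene, read 86.1 and 71.7 CPM in eWAT and 286 and 159 CPM in iWAT (log2 difference 1.31), a call lost without eWAT replicate 1 (adjusted p = 0.0711), without Scrublet calls (adjusted p = 0.0744) and with stricter cell filters (adjusted p = 0.0862).

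DC-like cells (423 and 328 in eWAT, 246 and 203 in iWAT) held 516 genes called higher in iWAT and 1020 higher in eWAT, 17.9% of 8560 (6.03% and 11.9% by direction). The total fell to 415 without iWAT replicate 1, 875 without iWAT replicate 2 and 955 without eWAT replicate 1, and with library size alone the split turned to 1315 against 652 and the median of all genes rose to 0.358. Assigned singly by markers, 469 cells of the class were DC-like, 322 APC-like and 131 NPVM-like. The APC markers summed to 7.31% and 5.69% of their APC-like level in eWAT DC-like cells and to 16.3% and 12.3% in iWAT. The part of such cells and RNA was not tested. Il12b, a subunit of interleukins 12 and 23 that mature dendritic cells secrete, read 89.7 and 114 CPM in eWAT and had no iWAT UMI (at least 25.8-fold lower). Apol7c, a gene of cross-presenting dendritic cells, read 15.3 and 25.9 CPM in eWAT and had none either (at least 5.07-fold lower). Cluster 15, led by Clec9a, made up 43.03% and 34.15% of the class in eWAT and 29.27% and 24.63% in iWAT, and its part was not tested. Ccl5 read 451 and 131 CPM in eWAT and 7.39 and 8.01 CPM in iWAT (log2 difference -5.58, SE 0.67, edgeR adjusted p = 9.92e-05) and Ccl17, a T cell attractant, 506 and 64.01 CPM in eWAT and 27.1 and 2.67 CPM in iWAT (log2 difference -4.58). Both chemokines were lower in both iWAT libraries, and their eWAT libraries differed from each other by 3-fold or more. Wnt4 was higher in iWAT, at 12.7 and 4.61 CPM in eWAT and 49.2 and 53.4 CPM in iWAT (log2 difference 2.13, and like Ccl17 not called without iWAT replicate 1, adjusted p = 0.0722 and 0.0583), as was Oasl2 at 5.98 and 9.803 CPM in eWAT and 56.6 and 58.8 CPM in iWAT (log2 difference 2.57). Interferon-stimulated genes gave 6 (3, 5, 4, 3) and 2 (4, 2, 1, 2) of 33 (iWAT and eWAT, median 0.54). Alternative and resident macrophage genes gave 13 (9, 18, 5, 13) and 0 (0, 0, 0, 0) of 27 (median 1.08), and the PVM markers stood at 4.29% and 7.95% of their PVM-like level in eWAT DC-like cells and at 21.2% and 17.1% in iWAT. Their part was not tested.

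In DC-like cells 80 (80, 80, 76, 80) of 81 ribosomal protein genes and 65 (65, 66, 27, 54) of 82 oxidative phosphorylation genes were called higher in eWAT (medians -2.32 and -1.54). Of all genes in DC-like cells, 11.9% were called higher in eWAT. The depots also differed in depth, with medians of 6219 and 3209 UMIs per cell in eWAT and 1536 and 1583 in iWAT, and mitochondrial shares of 3.727% and 7.742% against 12.62% and 10.7%. With every DC-like cell thinned to 700 UMIs, 68 and 20 were called higher in eWAT (medians -1.74 and -1.02).

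NKT-like cells (618 and 472 in eWAT, 156 and 242 in iWAT) held 307 genes called higher in iWAT and 530 higher in eWAT, 9.84% of 8503 (3.61% and 6.23% by direction), and 481 without eWAT replicate 1 or 444 without eWAT replicate 2. With library size alone the split was 420 to 321. Assigned singly by markers, 697 cells of the class were NKT-like and 453 APC-like, and the part of the latter was not tested. Cluster 16, led by Gata3 and Il2ra, made up 31.88% and 32.42% of the class in eWAT and 7.692% and 6.198% in iWAT. Ccl5, a product of cytotoxic cells, read 2027 and 2480.4 CPM in eWAT and 157 and 376 CPM in iWAT (log2 difference -3.23, SE 0.35, edgeR adjusted p = 1.21e-05). Il1rl1, the interleukin-33 receptor of type 2 lymphoid cells and regulatory T cells, read 515 and 399 CPM in eWAT and 138 and 140.4 CPM in iWAT (log2 difference -1.901). Both were lower in both iWAT libraries. The part of cluster 16, whose share differed between the depots, was not tested. Ifi27l2a, induced by interferon, read 136 and 144 CPM in eWAT and 476 and 411 CPM in iWAT (log2 difference 1.49), and the list gave 4 (3, 1, 3, 5) and 1 (1, 1, 3, 2) of 29 (median 0.55). Alternative and resident macrophage genes gave 16 (11, 10, 11, 18) and 1 (1, 1, 1, 1) of 27 (median 1.02), and the PVM markers stood at 7.04% and 7.05% of their PVM-like level in eWAT NKT-like cells and at 27.5% and 16% in iWAT. Their part was not tested. Ribosomal protein genes gave 76 (67, 70, 73, 79) of 81 higher in eWAT (median -1.69), and oxidative phosphorylation genes 38 (26, 22, 35, 34) of 80 (median -0.95). Thinning every NKT-like cell to 700 UMIs left 58 and 7. BC-like cells, 96 and 58 against 24 and 55, held 7 called genes (0.275% of 2545, 0.157% and 0.118% by direction). Of these, Il1r2, Ccl8 and C4b are carried mostly by other classes and were higher in iWAT, while Gapdh and Sec61b were higher in eWAT. With either iWAT library left out edgeR called 0 (522 and 519 genes had an unadjusted p under 0.05), and with eWAT replicate 2 left out 180.

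**Figure D4:**
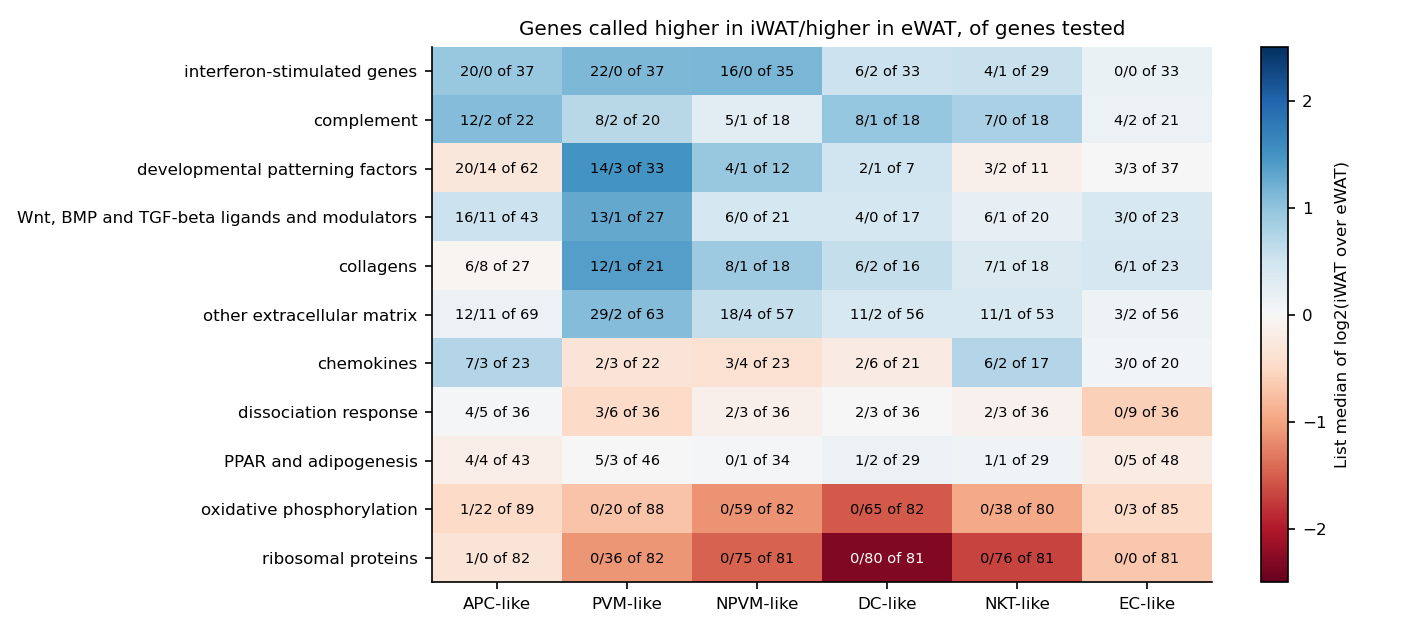
Depot differences of 11 gene lists (rows) in 6 cell classes (columns) of the libraries labelled ob/ob-Veh. Colour gives the median log2 difference of the list, iWAT over eWAT, and the text in each cell the members called higher in iWAT and in eWAT out of those tested. Of the interferon-stimulated genes, 20 of 37 were called higher in iWAT in APC-like cells, 22 of 37 in PVM-like cells and none of 33 in EC-like cells. Of all genes, 7.96%, 4.45% and 1.2% were called higher in iWAT in these classes, so the EC-like count lies near its share.

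Whether a depot difference was larger in a class was tested as an interaction. Between APC-like and PVM-like cells 1029 of 13712 genes passed (7.5%). Of the genes called in APC-like cells, 272 of the 1058 tested on the iWAT side and 209 of the 966 on the eWAT side differed more there, and of those called in PVM-like cells 193 of 515 and 77 of 444. Calls on the same sums picked these genes, which favours the class of the call, so these counts are descriptive. Usp18 was more iWAT-sided in APC-like cells, by 1.15 (edgeR adjusted p = 0.0239), as was C4b, by 2.21 (edgeR adjusted p = 0.00207). Ifi44 was more iWAT-sided in PVM-like cells (interaction -3.30, edgeR adjusted p = 0.0374). Hp and Thbs1 were more eWAT-sided in APC-like cells (interactions -5.98 and -4.16). For Mmp3, Il1r2, Igfbp5 and Wnt2 the interaction did not pass, and their iWAT levels in PVM-like cells were at 0.11, 0.101, 0.06 and 0.08 of those in APC-like cells.

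Between APC-like and EC-like cells 507 of 13477 genes passed (3.76%). Usp18 was more iWAT-sided in APC-like cells by 2.68 (edgeR adjusted p = 2.39e-05) and Igfbp5 by 2.85 (edgeR adjusted p = 4.07e-05). Irx5 (9.36) and Shox2 (8.51) passed on the same side. Hoxc10 did not (interaction 0.75, edgeR adjusted p = 0.858), and in EC-like cells it read 0.683 and 0.847 CPM in eWAT and 12.9 and 11.3 CPM in iWAT (log2 difference 3.66, not called without either eWAT library, without Scrublet calls, with cells assigned singly or by DESeq2, adjusted p = 0.0639 to 0.148), 0.28 of its APC-like level in iWAT. Of the genes called in EC-like cells, 21 of 123 on the iWAT side and 23 of 103 on the eWAT side differed more there than in APC-like cells. These counts are descriptive too, since calls on the same sums picked the genes.

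The other groups of the series gave libraries in which the depot difference could be read again, with APC-like cells assigned singly by markers in all 12. In this assignment 1100 genes were called higher in iWAT and 1101 higher in eWAT in the libraries labelled ob/ob-Veh (15.8% of genes). Of the first, 827 of 1022 tested in ob/ob-Rosi (80.92%) and 816 of 971 tested in WT-Veh (84.04%) had the same sign, where 49.01% and 51.97% of all genes had it. Of the second, 847 of 1019 (83.12%) and 867 of 1001 (86.61%) did, against 50.99% and 48.03%. In ob/ob-Rosi alone 316 genes passed (2.36%) and in WT-Veh alone 0 (0%) by edgeR, where 1174 had an unadjusted p under 0.05. Few were therefore called again the same way, 140 and 83 in ob/ob-Rosi and 0 in WT-Veh, and in ob/ob-Rosi 1 and 5 were called the other way. The depot contrasts share no library.

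Of the 34 patterning factors called in APC-like cells, 31 of 33 tested had the same sign in ob/ob-Rosi and 28 of 30 in WT-Veh. Osr1 and Msx1 had the opposite sign in both. Tbx15 stood at 0 to 0.126 CPM in the 4 other eWAT libraries, and at 22.1 and 27.8 CPM (WT-Veh) and 34.8 and 31.0 CPM (ob/ob-Rosi) in iWAT. Tcf21 stood at 21.6 to 35.8 CPM in the other eWAT libraries and at 0 to 6.53 CPM in iWAT, the highest in ob/ob-Rosi replicate 1. The eWAT level of Tcf21 was thus several times lower in those groups than in the libraries labelled ob/ob-Veh.

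The size of the depot difference itself was compared between ob/ob-Veh and the mean of the other groups. In APC-like cells 13 of 14408 genes passed (0.0902%), and over whole libraries 127 of 16631 (0.764%). When a library labelled ob/ob-Veh was left out, 0 or 1 passed by edgeR in APC-like cells (690 to 903 at an unadjusted p under 0.05, against 1182 with all 12 libraries) and 0 to 14 over whole libraries (1312 to 2346, against 2291). Without iWAT WT-Veh replicate 1 the counts were 293 and 190. Mmp3 is among the 13. Its eWAT level was 8.83 and 4.37 CPM under ob/ob-Veh, 150 and 120 CPM under WT-Veh and 190 and 248 CPM under ob/ob-Rosi, and its iWAT level 503 and 514, 308 and 181, and 988 and 417 CPM. Il1r2 read 4.65 and 3.15 CPM in eWAT and 622 and 555 CPM in iWAT under ob/ob-Veh, and 4.62 to 11.3 CPM and 15.9 to 68.2 CPM in the other groups. The eWAT level set the difference for Mmp3, and the iWAT level for Il1r2.

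**Figure D5:**
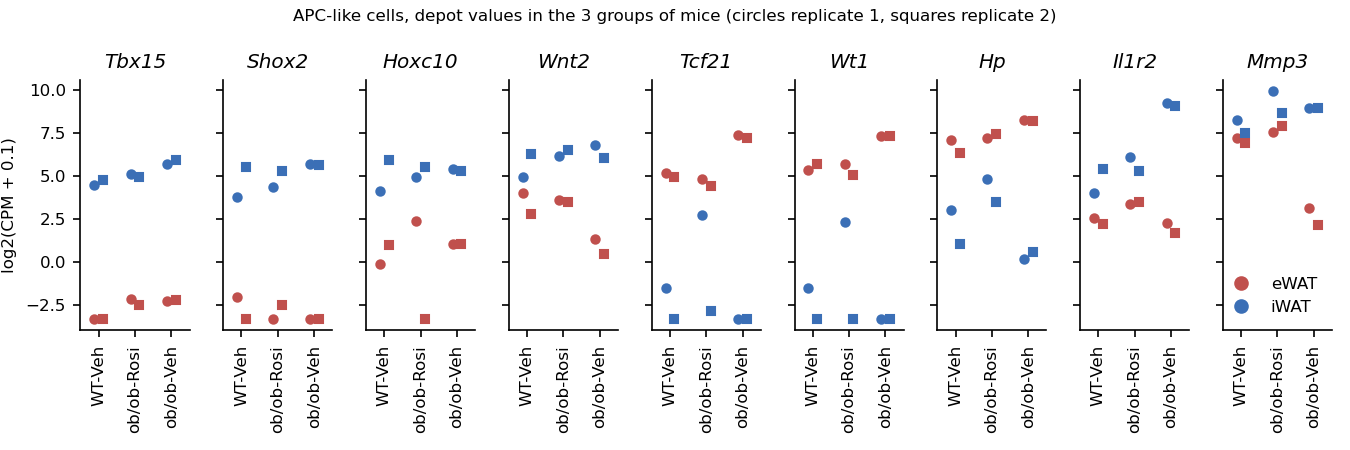
Level of 9 genes in APC-like cells assigned singly by markers, as log2(CPM + 0.1), in the 12 libraries, with a point for each library and the depots side by side within each label. Tbx15, Shox2 and Hoxc10 stood higher in iWAT and Tcf21, Wt1 and Hp higher in eWAT under each label, while Mmp3 in eWAT was lower under ob/ob-Veh than under the other labels.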

How the data were processed

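Single-cell libraries of adipose SVF were made with 10x Genomics 3-prime v3.1 chemistry. Per the labels and the study's methods, the authors demultiplexed reads with bcl2fastq 2.19.1.403 and aligned them to mm10 with Cell Ranger 3.0.2, and the deposited matrices hold raw UMI counts of 31053 genes per barcode. The deposited iWAT matrices held no barcode above 22000 UMIs or at 25% or more mitochondrial UMIs, whereas those of eWAT held 76 and 111 barcodes above 22000 and 732 and 1861 at 25% or more, so both limits were applied to every library.

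Kept cells of the 4 libraries were clustered within scanpy 1.11.5 (2000 variable genes, Leiden), and clusters were named by fixed markers. The rules for naming were adjusted after the clusters were seen and before depots were compared. Scrublet called 1.58% to 3.06% of cells as doublets, which were kept in the main counts. UMIs of a class were summed within each library, and the sums were tested with edgeR 4.0.16 (TMM, filterByExpr, glmQLFit, glmQLFTest) under R 4.3.3, with depot as the only term and Benjamini-Hochberg adjustment over all genes of a fit. Between classes the interaction was tested with library as a block, and between groups as the ob/ob-Veh depot effect minus the mean of the others. Scripts were tested on simulated data. DESeq2 1.42.0, other scalings, filters, clusterings, thinning and left-out libraries were alternatives. 2 libraries of a depot differed beyond counting noise (chi-square per degree of freedom 240 in eWAT and 85.5 in iWAT) and were counted as 2.

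The comparison, the 22 gene lists and the markers were chosen with earlier results of these data known. Named genes were those with the largest called difference each way (10 in APC-like cells, 6 in whole libraries, APC subgroups, PVM-like and EC-like cells, 4 elsewhere). They had non-overlapping libraries, a mean of at least 20 CPM in the higher depot, no role as a marker and, within a class, at least 0.1 of the level in the class that holds the most. Up to 4 members per list, called patterning factors and label checks were added. A few genes that met these rules are not reported here. Where a gene had no UMI in a depot, a fold is a lower bound against 3 UMIs over the depot. Promoter windows came from RefSeq (GRCm38.p6).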

Additional observations from a re-analysis of the deposited data

Results flagged for a closer look

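In APC-like cells assigned singly by markers, 13 genes, 12 of them given here, were picked out because the depot difference in the libraries labelled ob/ob-Veh differed from the mean of the ob/ob-Rosi and WT-Veh differences in the interaction test. The values are log2, iWAT over eWAT. Mmp3 (interaction 4.94) and Il1r2 (4.77) are described above, with depot differences of 6.24 and 7.23 under ob/ob-Veh, 1.74 and 2.37 under ob/ob-Rosi and 0.90 and 2.55 under WT-Veh. Scgb1a1, a secretoglobin (-4.72), turned from 2.88 under ob/ob-Rosi and 1.31 under WT-Veh to -2.62 under ob/ob-Veh. Reep6 (-5.98) stood at 2.91, 3.06 and -3.01 in the same order. Cadm4, an adhesion molecule (4.89), stood at -3.20, -3.27 and 1.68. Under ob/ob-Veh Cadm4 was near the floor, at 0.70 and 0.50 CPM in eWAT and 1.63 and 2.29 CPM in iWAT. The other eWAT libraries read 18.15 to 39.09 CPM and the other iWAT libraries 1.987 to 4.259 CPM. Mrgprg (-6.20) was higher in iWAT under each label, at 9.49, 8.86 and 2.97. Bco1, a carotenoid-cleaving enzyme (-8.26), Psat1, of serine synthesis (-3.04), Arxes2 (-3.88), Slc24a3 (-3.23) and Vwa1 (-2.53) differed in the same direction as Scgb1a1, and Snhg11 (3.90) in that of Mmp3. Bco1 read 0 CPM in both eWAT libraries of WT-Veh and 0.1261 and 0.0749 CPM in those of ob/ob-Rosi, so the size of its value is uncertain. With a library labelled ob/ob-Veh left out 0 or 1 gene passed by edgeR, and with thinned cells 0 (883 at an unadjusted p under 0.05).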

How the results depend on the processing

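The 4 libraries, 2 per depot, limit what can be told, since a left-out library leaves a depot with 1 library that is assumed to vary like the others, and the shallower iWAT cells make low genes harder to detect there. Of 269 named pairs of a gene and a class that were called, 161 were called with the same sign under every alternative that gave a value, and 108 lost the call or sign under at least 1. The counts moved with the settings as follows, and the cause was not tested.

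With a library left out, the calls ranged from 454 to 978 in whole libraries, 1057 to 1528 in APC-like, 780 to 2098 in progenitor-like, 1147 to 1785 in preadipocyte-like, 391 to 1200 in PVM-like, 556 to 1147 in NPVM-like, 124 to 701 in EC-like, 415 to 1594 in DC-like, 444 to 966 in NKT-like and 0 to 180 in BC-like cells. The interactions ranged from 652 to 1253 (APC-like against PVM-like), 371 to 576 (APC-like against EC-like) and 358 to 1036 (progenitor-like against preadipocyte-like), those between groups from 0 to 190 (whole library) and 0 to 293 (APC-like), and the classes that differed in cell number from 1 to 4, against 2.

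Replicate numbers are shared between the depots, but no label says that a number marks the same mouse in both, and there are only 2 pairs. The deviations of same-numbered libraries correlated across genes (0.555 in whole libraries, 0.532 in APC-like, -0.0531 in BC-like and 0.125 to 0.428 in the other classes), which is a hint from the data and not from the design. With the replicate block the counts were 5036 (whole library), 4838 (APC-like), 2695 (preadipocyte-like), 3650 (PVM-like), 1900 (NPVM-like), 1200 (EC-like), 4 (BC-like), and 395 and 214 for the comparison of groups in whole libraries and APC-like cells. With it Trem2 in PVM-like cells was called (log2 difference -1.233, edgeR adjusted p = 1.91e-06).

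With cells thinned to 700 UMIs the calls were 937 in whole libraries, 1188 in progenitor-like, 613 in preadipocyte-like, 527 in PVM-like, 236 in NPVM-like, 75 in EC-like, 356 in DC-like, 388 in NKT-like and 1 in BC-like cells, the interactions 651, 157 and 236 in the order above, and those between groups 23 and 0. With all 12 libraries in the fit they were 697 in whole libraries and, with cells assigned singly, 541 in APC-like, 678 in progenitor-like, 441 in preadipocyte-like, 141 in PVM-like, 118 in NPVM-like, 15 in EC-like and 406 in DC-like cells. Cells assigned singly in the 4 libraries gave 1506 progenitor-like, 2473 preadipocyte-like and 871 DC-like calls, and clusters at resolution 0.5 gave 1764 progenitor-like and 626 DC-like calls and no cluster named NPVM-like.

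DESeq2 called 2727 genes in whole libraries, 128 in EC-like, 809 in DC-like, 374 in NKT-like and 101 in BC-like cells. With no filter on low counts there were 3196 calls in APC-like, 2242 in PVM-like, 597 in EC-like and 152 in BC-like cells. A minimum of 2-fold left 1375 in APC-like and 1633 in progenitor-like cells. Stricter cell filters gave 423 in NPVM-like, 137 in EC-like and 367 in NKT-like cells, and removal of Scrublet calls 74 in EC-like and 2 in BC-like cells. In BC-like cells library size alone, DESeq2 size factors and TMM without ribosomal and mitochondrial genes gave 2, 4 and 3.

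Under library size alone the share of calls on the iWAT side was 76.5% in PVM-like, 54.2% in NPVM-like, 68.7% in EC-like, 66.9% in DC-like and 56.7% in NKT-like cells (2 of 2 calls in BC-like cells), and the median log2 difference of all genes was then 0.248 in NPVM-like, 0.358 in DC-like, 0.17 in NKT-like, 0.106 in EC-like and 0.504 in BC-like cells. Leaving out genes held mostly by another class, chosen after the data were seen, gave 1763 calls in APC-like and 722 in PVM-like cells.

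The log2 difference in EC-like cell number (0.05) turned to -0.05549 at resolution 0.5, -0.04315 without mesothelial-like cells in the total, -0.2674 with the replicate block, and ranged from -1.735 to 0.9709 with a library left out, below 0 without eWAT replicate 1 (-0.507) or iWAT replicate 2. That of erythrocyte-like cells turned to -1.09 with stricter filters. In 1 class, against 2, cell numbers differed at resolution 2 and without mesothelial-like cells in the total. With a library left out the log2 difference of Pdgfra in APC-like cells ranged from -0.07452 (without iWAT replicate 2) to 0.2023 and that of Icam1 from -0.5877 to 0.2239 (without iWAT replicate 1), and that of Mmp12 in NPVM-like cells turned to -0.71 at resolution 2.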

Other observations

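Several small clusters got no class name or hold genes of another tissue. Cluster 22 had 84 cells, 81 of them in eWAT replicate 2, and was led by Akr1b7, Crisp1, Spink8, Defb42, Gpx5 and Lcn5, genes known from the epididymis. The erythrocyte-like cluster, with 5 and 46 cells in eWAT and 98 and 53 in iWAT, was led by the sperm genes Prm2, Smcp and Odf1 beside haemoglobins. Cluster 23, with 26 and 39 cells in eWAT and 0 in both iWAT libraries, was led by the mural genes Tagln, Acta2 and Myh11 together with the adipocyte genes Cfd and Adipoq. Cluster 17, with 84 and 91 cells in eWAT and 38 and 53 in iWAT, held macrophage and APC markers, and cluster 18, with 130 and 49 against 41 and 20, markers of mast and of dividing cells. None of these clusters entered a comparison within a class.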
